A study of Mus musculus with 6 samples.

Results

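Cell cycle and mitosis genes were followed across mouse skin exposed for 7 days to a cytokine or to PBS from a subcutaneous pump. The list named 44 proliferation genes, and 42 of them had a probe set (a group of array probes read as 1 value) whose annotation names that gene alone, out of 12393 genes on the array. Ccnb1 and Cdca8 had none and have no value here. Of several probe sets for a gene, the one with the highest mean on the log2 scale stood for it, so the choice did not use any difference between arrays. The 42 genes were split by role into 14 S phase genes, 25 mitotic genes and 3 others (Ccnd1, Cks1b and Stmn1). On at least 1 array, 38 of them reached a signal of 165, the median of all values, which served as the limit for dim genes, and Tyms, Cdc6, Ccne1 and Foxm1 stayed below it on all 6.

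All mice were C57BL/6, and each skin piece gave total RNA for 1 biotin-labelled array. Outlet skin after PBS (called PBS local), after IL-13 and after TSLP had 1 array each, as did abdominal skin of a PBS pump, away from its outlet (PBS distal). Outlet skin after TGF-beta had 2 arrays, 1 for each of mouse 1 and mouse 2. The labels give no dose, age or sex, no isoform of TGF-beta, and no statement on whether both PBS pieces came from the same animal. TGF-beta was therefore the only group with a measured spread. A whole piece of skin holds many cell types, so fewer dividing cells and less of a transcript in each dividing cell cannot be told apart in these values. The skin keratins Krt5 (6030 to 9502 signal units) and Krt14 (5886 to 8745) were bright on all 6 arrays.

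A dividing cell copies its DNA in S phase and separates the copies in mitosis, and each step has its own enzymes. S phase genes encode the MCM helicase that unwinds DNA, the sliding clamp Pcna, and the enzymes that supply nucleotides, and many are controlled by E2F factors. Mitotic genes encode cyclins A and B with the kinase Cdk1, spindle motors, checkpoint kinases and the ubiquitin ligase that ends mitosis, and their transcripts peak later in the cycle. In skin, dividing cells are found in the basal epidermis and in the matrix of growing hair follicles, and after injury also among immune cells, fibroblasts and muscle precursors.

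The promoters of 4 members are printed as examples. They are those of the 2 S phase and 2 mitotic genes with the widest range over the 6 arrays among those with an entry. Each run is the RefSeq sequence of assembly GRCm38.p6 from 250 bases before the gene's start to 50 after it, 5′ to 3′ on the gene's strand. Capitals mark CCAAT (the box bound by NF-Y), TTTGAA (the core of the cell cycle homology region of late cell cycle promoters) and the E2F cores TTTCCCGC, TTTGGCGC and TTTCGCGC, each searched on both strands. Tk1 (thymidine kinase) lies at chr11:117825965-117826264 on the minus strand, Rrm2 (a ribonucleotide reductase subunit) at chr12:24708004-24708303 on the plus strand, Cdc20 (an activator of the anaphase-promoting complex) at chr4:118437294-118437593 on the minus strand, and Kif22 (a chromosome-arm kinesin) at chr7:127042371-127042670 on the minus strand.
Tk1: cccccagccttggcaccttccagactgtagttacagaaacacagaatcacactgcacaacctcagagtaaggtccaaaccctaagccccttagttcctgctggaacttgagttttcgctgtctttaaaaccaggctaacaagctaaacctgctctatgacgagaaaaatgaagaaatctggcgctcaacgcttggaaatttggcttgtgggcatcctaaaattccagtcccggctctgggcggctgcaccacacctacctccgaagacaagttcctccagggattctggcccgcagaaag
Rrm2: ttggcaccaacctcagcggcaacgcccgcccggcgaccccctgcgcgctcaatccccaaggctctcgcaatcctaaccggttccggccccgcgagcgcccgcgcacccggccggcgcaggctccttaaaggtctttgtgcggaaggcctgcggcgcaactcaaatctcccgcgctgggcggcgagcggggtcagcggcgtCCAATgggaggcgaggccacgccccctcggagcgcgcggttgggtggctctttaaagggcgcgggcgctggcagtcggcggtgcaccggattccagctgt
Cdc20: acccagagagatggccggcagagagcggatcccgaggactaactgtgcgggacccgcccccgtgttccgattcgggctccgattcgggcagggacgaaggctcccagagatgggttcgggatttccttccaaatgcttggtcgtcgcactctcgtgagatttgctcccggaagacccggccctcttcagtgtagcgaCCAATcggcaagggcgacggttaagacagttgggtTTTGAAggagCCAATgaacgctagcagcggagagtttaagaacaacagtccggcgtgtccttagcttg
Kif22: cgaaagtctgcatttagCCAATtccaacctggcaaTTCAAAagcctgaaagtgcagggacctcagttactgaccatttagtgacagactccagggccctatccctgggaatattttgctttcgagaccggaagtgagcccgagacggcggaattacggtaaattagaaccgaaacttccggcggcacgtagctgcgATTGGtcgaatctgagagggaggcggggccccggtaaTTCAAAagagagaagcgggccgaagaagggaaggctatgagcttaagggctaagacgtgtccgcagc

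The Cdc20 window holds 2 CCAAT and 1 TTTGAA, the Kif22 window 2 of each, the Rrm2 window 1 CCAAT, and the Tk1 window none of these letters. No printed window holds an E2F core. A RefSeq promoter entry was found for 33 of the 42 members. Of the 20 mitotic members with a RefSeq promoter entry, 15 (75.0%) held TTTGAA, against 1 of 12 S phase members (8.33%) and 20.2% of all 27025 genes with an entry. CCAAT was in 17 of 20 mitotic (85.0%) and 8 of 12 S phase windows (66.7%), against 41.1% of all genes. An E2F core was in 1 of 20 mitotic (5.0%) and 5 of 12 S phase windows (41.7%), against 2.12% of all genes. None of the motifs overlapped another in the 4 printed windows. These are matches of letters, and no binding was measured.

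Skin under TSLP had the lowest mitotic transcripts at the pump outlet. All 25 mitotic members were below PBS local skin, with a median difference of -0.67 in log2(signal + 27.4), the scale used for every difference here, which understates the change of dim genes. The 14 S phase members were less far below, with 12 under 0 and a median of -0.26. Over all 12393 genes the median was 0.00 and 50.7% were below 0. With 1 array on each side these differences have no replicate check.

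Cdc20 had a signal of 1604 in PBS local, 1217 in PBS distal, 1448 under IL-13, 763 under TSLP, and 1590 and 2136 in TGF-beta mouse 1 and mouse 2. The TSLP array was the lowest, and the difference from PBS local was -1.05. This Cdc20 probe set ends in x_at and can bind related transcripts. The gene's other probe set above the limit gave a smaller difference under TSLP, -0.70. Ube2c, the ubiquitin-conjugating enzyme that works with that complex, was at 1080 in PBS local, 546 in PBS distal, 762 under IL-13, 501 under TSLP and 904 and 1106 in the TGF-beta mice. TSLP and distal skin were both low for this gene, and the difference under TSLP was -1.07.

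Cdca3, a trigger of mitotic entry, was at 704 in PBS local, 347 in PBS distal, 506 under IL-13, 329 under TSLP and 596 and 881 in the TGF-beta mice, which put TSLP at -1.03. Ccnb2, a B-type cyclin, was at 745 in PBS local, 311 in PBS distal, 504 under IL-13, 361 under TSLP and 633 and 703 in the TGF-beta mice. It was lowest in distal skin, at -1.19, and stood at -0.99 under TSLP. Birc5, the survivin subunit of the chromosomal passenger complex, was at 716 in PBS local, 400 in PBS distal, 602 under IL-13, 354 under TSLP and 749 and 789 in the TGF-beta mice. Here both TGF-beta mice were above PBS local, while TSLP was at -0.96 and distal skin at -0.80.

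Mki67, the gene of the Ki-67 antigen used to count cycling cells, was at 1792 in PBS local, 1114 in PBS distal, 1525 under IL-13, 1128 under TSLP and 1594 and 2186 in the TGF-beta mice. Distal and TSLP skin were nearly level for it, at -0.67 and -0.66. Cks2, a subunit of cyclin-dependent kinases, was at 1987, 1471, 2082 and 1330 in PBS local, PBS distal, IL-13 and TSLP skin and at 2036 and 2436 in the TGF-beta mice. TSLP was again the lowest, at -0.57. The spindle genes Kif20a (-0.93) and Tpx2 (-0.93) came next under TSLP, followed by Nusap1 (-0.77), Top2a (-0.75), which untangles chromosomes, and the midzone protein gene Prc1 (-0.70), nearer the class median. At the other end were Plk1, a mitotic kinase, at -0.03 and Cenpa, the centromeric histone, at -0.30.

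**Figure D1:**
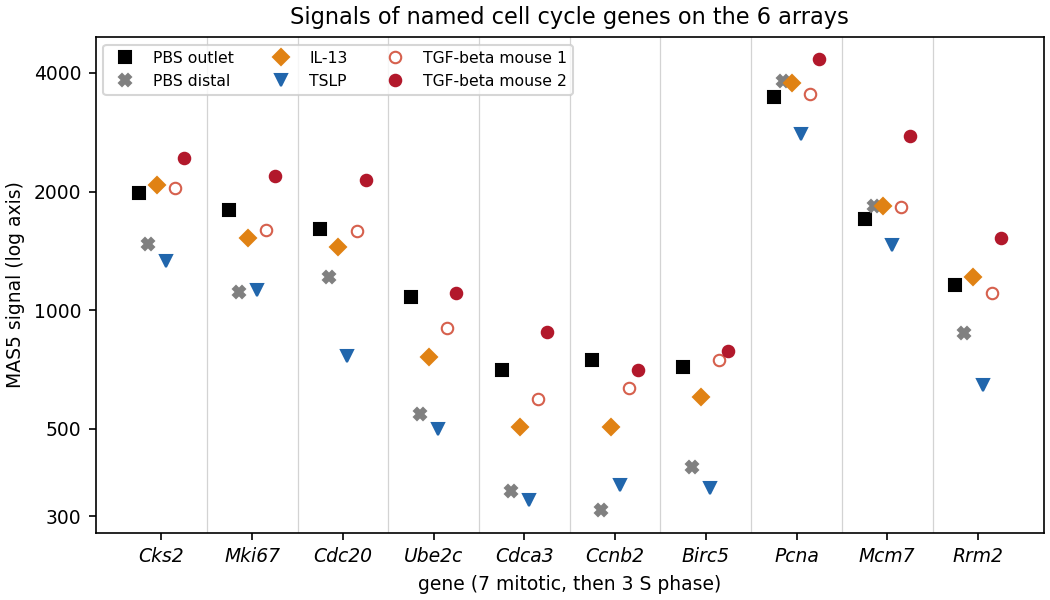
MAS5 signals (log axis) of 7 mitotic and 3 S phase genes, 1 point per array. For Cdc20 the TSLP array lies at 763 and the other 5 arrays between 1217 and 2136, while for Ccnb2 the distal array is lower (311) than the TSLP array (361).

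By the size rule, a difference of at least 1 (2-fold), 3 of the 37 members that passed the limit on either array were lower under TSLP (Cdc20, Cdca3 and Ube2c, all mitotic), against 0.447% of all 7614 genes tested. The count rests on the offset, and was 7 with the lower offset of 6.21 and 0 with the higher offset of 165. None was 2-fold higher, against 0.998% of all genes. Of the 38 members above the limit on any array, 29 had their lowest signal under TSLP, while 13.9% of all 7945 such genes did. All 11 S phase members above the limit were also below PBS local under TSLP, from -0.10 to -0.81. Of the 20 other probe sets of members above the limit, 18 were lower under TSLP too. The 2 that were higher belong to Mcm2 (0.10) and Mcm4 (0.04), so the sign for these genes depends on the probe set. On other arrays more signs differed from the kept probe set, for 6 of the 20 in distal skin and 7 under IL-13. In the TGF-beta mice 7 differed in mouse 1 and 2 in mouse 2. Rrm2 was at 1158 in PBS local, 876 in PBS distal, 1211 under IL-13, 647 under TSLP and 1105 and 1528 in the TGF-beta mice, a difference of -0.81 under TSLP. The clamp gene Pcna was at 3473, 3817, 3765 and 2807 in PBS local, PBS distal, IL-13 and TSLP skin and at 3528 and 4331 in the TGF-beta mice. It was lowest under TSLP, at -0.30, with distal skin above PBS local. Mcm7, of the helicase, was at 1704, 1843, 1839 and 1462 on the same arrays and at 1829 and 2760 in the TGF-beta mice. Its TSLP difference was -0.22, and the other MCM genes lay between -0.40 (Mcm4) and -0.10 (Mcm3). Tk1 stood at -0.69, and Ccne1, a cyclin of the G1 to S step below the limit, at 0.04.

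TSLP skin could also be set against the 2 TGF-beta mice, the comparison of this array that uses a measured spread. Every S phase member and 24 of 25 mitotic members were below the TGF-beta mean, with medians of -0.38 and -0.84, against 0.02 over all genes. The S phase median was -0.24 from mouse 1, with Mcm3 (0.04) and Ccne1 (0.02) not below it, and -0.57 from mouse 2, while the mitotic median was -0.67 and -0.92. The exception among mitotic members was the dim Foxm1, a transcription factor of mitotic genes, at 0.01. Birc5 was -1.03 from mouse 1 and -1.10 from mouse 2, giving -1.06 with a standard error of 0.15 in limma. Cdc20 was -1.03 and -1.45 from the mice, a mean of -1.24 with a standard error of 0.24. Those 2 were the members at least 2-fold lower than both mice, of 38, against 0.167% of all 7763 genes. The count was 0 with the higher offset and 1 with the mean of all probe sets. On the other Cdc20 probe set above the limit, TSLP skin was at 276 and the mice at 442 and 478, less than 2-fold apart. Cdk1, the mitotic kinase, was at -1.04, with a standard error of 0.19, the checkpoint kinase gene Bub1 at -1.10 (0.28), and Kif22 at -1.02 (0.19).

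No gene passed limma's threshold in that comparison (0 of 7763, or 0%), so no member is called. After quantile normalization 4 genes were called, none of them a member. The members' adjusted p-values ran from 0.676 to 0.907 in limma with Benjamini-Hochberg adjustment. At an unadjusted p under 0.05, 568 genes of either direction were found, and 2.90% of all genes were lower. Among the members 22 of 38 were lower at that level, made up of 19 of 24 mitotic, 2 of 11 S phase (Rrm2 and Tk1) and 1 of 3 other genes (Cks1b). That spread comes from 1 pair of mice, and the members share the error of the single TSLP array. Measured against mouse 2 alone, 15 of 38 members were 2-fold lower, against 2.10% of all genes, and against mouse 1 alone 2 of 38, against 0.386%.

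**Figure D2:**
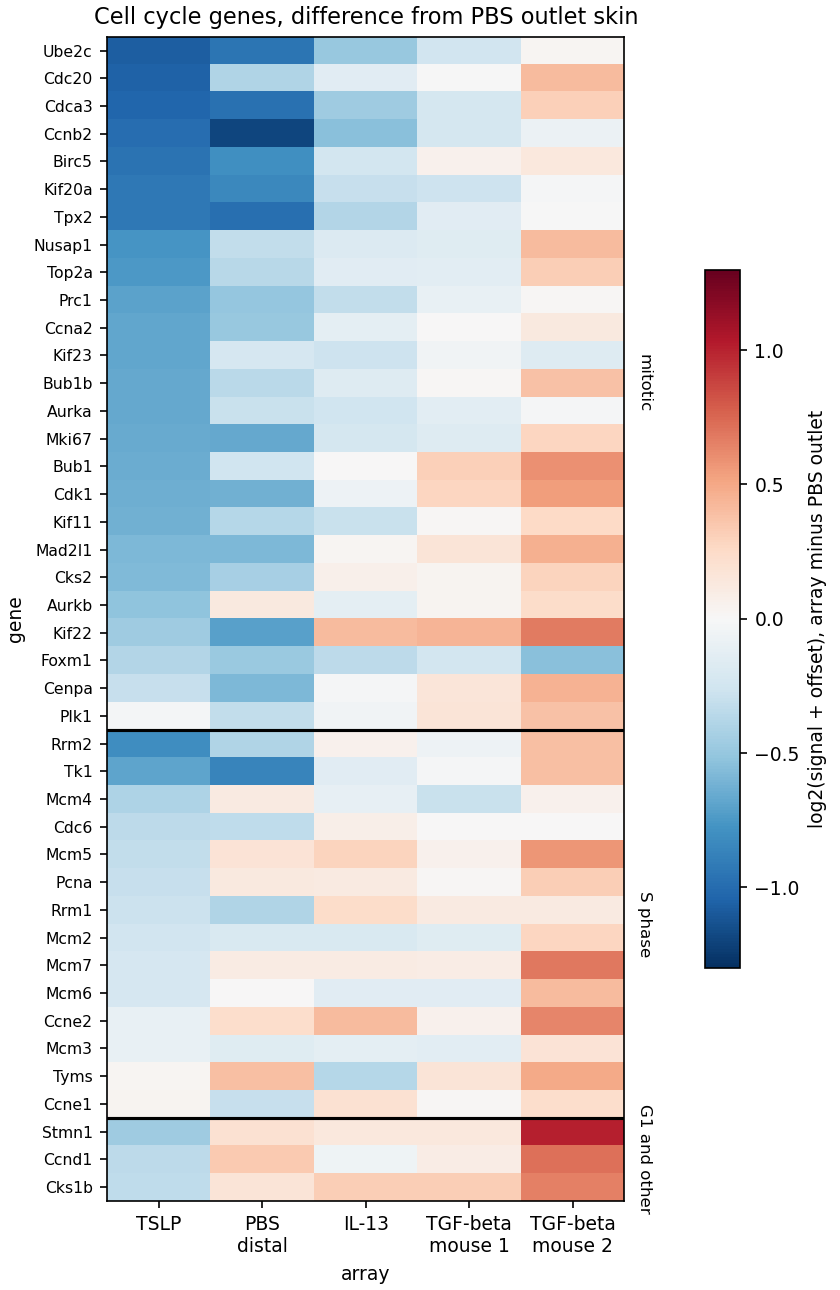
Difference of each array from PBS local skin in log2(signal + 27.4) for the 42 genes, ordered within each class by the TSLP value, blue lower and red higher. The mitotic block is blue under TSLP and in distal skin, and the mouse 2 column is mostly red, with Stmn1 at 1.01.

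Distal skin had low mitotic members beside S phase members on both sides of PBS local. Of the mitotic members 24 of 25 were below PBS local, with a median of -0.49, while 8 of 14 S phase members were below it, with a median of -0.08. The classes overlapped, with S phase members from -0.86 to 0.39 and mitotic members from -1.19 to 0.13, and their difference was not tested. Ccnd1, the G1 cyclin (0.34), the kinase subunit gene Cks1b (0.17) and Stmn1, which destabilises microtubules (0.20), were above it. Over all genes the median was -0.01 and 51.1% were below 0. The lowest mitotic members after Ccnb2 were Tpx2 (-0.98), Cdca3 (-0.97), Ube2c (-0.95) and Kif20a (-0.84). Aurkb, the kinase of the passenger complex, was the exception at 0.13, although its other probe set stood at -0.38.

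Among S phase genes in distal skin Tk1 stood apart. Its signal was 392 in PBS local, 204 in PBS distal, 352 under IL-13, 233 under TSLP and 387 and 524 in the TGF-beta mice, so distal skin was at -0.86. Rrm1 and Rrm2, the subunits of ribonucleotide reductase, were both at -0.39, whereas Mcm4 (0.12), Mcm5 (0.18), Mcm7 (0.11) and Pcna (0.13) were higher than at the outlet. Mcm2 (-0.20), Mcm3 (-0.16) and Mcm6 (0.00) were not. Other probe sets above the limit gave 0.06 and 0.41 for Mcm3, -0.09, -0.01 and 0.19 for Mcm7, and 0.08 for Mcm6. The direction of these genes in distal skin thus depends on the probe set. By the size rule 1 of 37 members (Ccnb2) was 2-fold lower in distal skin (3 with the lower and 0 with the higher offset), against 3.51% of all 7617 genes, and 0 were 2-fold higher, against 0.788%. The members' share was thus not above the background there.

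Set against the TGF-beta mice, distal skin had all 25 mitotic members below their mean, with a median of -0.59, and 12 of 14 S phase members, with a median of -0.22. Over all genes the median was 0.01 and 48.3% were below 0, and Aurkb (-0.01), Foxm1 (-0.09) and Kif23 (-0.11) were close to 0. Kif22 was at 1041 in PBS local, 624 in PBS distal, 1390 under IL-13, 749 under TSLP and 1417 and 1680 in the TGF-beta mice. It was the 1 member of 38 at least 2-fold higher in both TGF-beta mice than in distal skin, against 2.57% of all genes. Its probe set ends in x_at and can bind related transcripts. The gene's other probe set above the limit gave -0.20 under IL-13, where the kept one gave 0.41. On that other probe set distal skin was at 90.4 and the TGF-beta mice at 163 and 216. There mouse 1 was less than 2-fold above distal skin, so the 2-fold result for Kif22 depends on the probe set.

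The limma test of TGF-beta against distal skin depended on the normalization. With the scaled values it called 4 of 7774 genes (0.0515%) and 0 of 38 members, whose lowest adjusted p was 0.129. After quantile normalization, an alternative chosen after seeing the data, it called 316 of 7805 genes (4.05%) and 4 of 38 members. These were Kif22 (1.27 higher under TGF-beta, standard error 0.20, limma adjusted p = 0.0238), Ccnb2 (1.05, 0.18, 0.0299), Cdk1 (1.04, 0.20, 0.0386) and Birc5 (0.90, 0.18, 0.045), all mitotic. Their differences hardly moved between the normalizations, while the prior degrees of freedom of the spread went from 3.06 to 5.79. Body site and the agent both differ in this comparison and cannot be told apart.

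TSLP and distal skin shared their low mitotic values against PBS local, and the single PBS local array enters both differences. Directly compared, TSLP skin was at a median of -0.14 from distal skin over the mitotic members, with 18 of 25 below 0, and at -0.27 over the S phase members, with 10 of 14 below 0. With distal skin as the control, 0 of 31 members tested were 2-fold lower under TSLP, against 1.40% of all 7645 genes. Ccnb2 was 0.20 higher in TSLP than in distal skin and Cenpa 0.28 higher, while Cdc20 (-0.65) and Ccnd1 (-0.68) were lower.

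**Figure D3:**
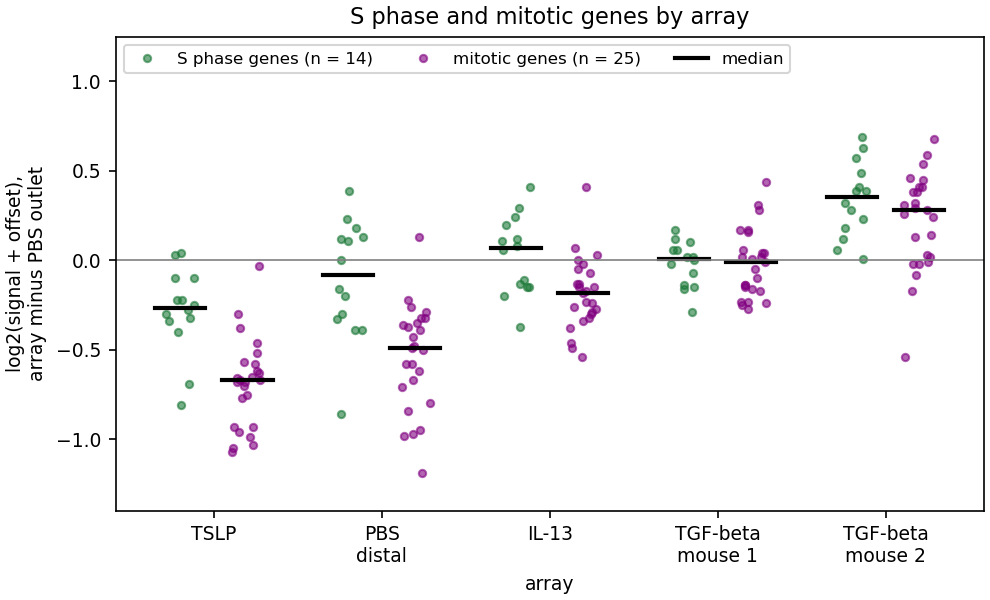
Difference of each array from PBS local skin in log2(signal + 27.4) for 14 S phase genes (green) and 25 mitotic genes (purple), with black bars at the medians. The bars lie at -0.26 and -0.67 under TSLP, at -0.08 and -0.49 in distal skin, and at 0.35 and 0.28 in TGF-beta mouse 2.

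Under TGF-beta the members were close to PBS local in mouse 1 and above it in mouse 2. The S phase median was 0.01 in mouse 1 and 0.35 in mouse 2, and the mitotic median was -0.01 and 0.28. All 14 S phase members and 19 of 25 mitotic members were above PBS local in mouse 2, against 8 of 14 and 12 of 25 in mouse 1, and 47.1% of all genes in mouse 2. Mouse 2 had the highest signal of the 6 arrays for 31 of the 38 members above the limit, while it did so for 18.9% of all 7945 genes.

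Stmn1 had a signal of 3075 in PBS local, 3539 in PBS distal, 3383 under IL-13, 2232 under TSLP and 3387 and 6216 in TGF-beta mouse 1 and mouse 2. The mouse 2 value stood clear of the other 5 arrays, and the mean difference of the TGF-beta mice from PBS local was 0.57 ± 0.62 (SD, n = 2). Mcm7 differed by 0.39 ± 0.41 (SD, n = 2) and Ccnd1 by 0.41 ± 0.44 (SD, n = 2), so for these genes the SD was larger than the mean. Cdk1 was steadier, at 0.41 ± 0.18 (SD, n = 2), as was Kif22 on its kept x_at probe set, at 0.56 ± 0.17 (SD, n = 2). The other Kif22 probe set above the limit gave -0.08 in mouse 1 and 0.28 in mouse 2. The rise of Kif22 in mouse 1 thus depends on the probe set.

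In the test of TGF-beta against PBS local, limma called 0 of 7741 genes (0%), with 355 at an unadjusted p under 0.05. Members had adjusted p-values of 0.864 to 0.985, and 1 of 38 (Kif22) was higher at an unadjusted p under 0.05, against 2.02% of all genes, with 0 lower, against 2.57%. No member was 2-fold higher (0.181% of all genes) or lower (0.155%) in both mice. Without mouse 1 the count of members 2-fold higher was 1 of 38 (Stmn1), against 1.85% of all genes. Between the mice no member differed 2-fold either, although 1.75% of genes were at least that much higher in mouse 2 than in mouse 1, and 39 of 42 members leaned that way, with a median of 0.29.

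Skin under IL-13 had S phase genes near PBS local and slightly lower mitotic genes. The mitotic median was -0.18 with 22 of 25 below 0, and the S phase median 0.07 with 6 of 14 below 0, while all genes had a median of -0.05 and 57.0% below 0. With distal skin as the control the mitotic direction turned, to a median of 0.36. Against PBS local, Ccnb2 (-0.54), Ube2c (-0.49) and Cdca3 (-0.46) were the lowest, and Ccne2, a cyclin of S phase entry (0.41), and Mcm5 (0.29) were among the highest. No member was 2-fold lower (0.410% of all genes) or higher (1.12%). Against the TGF-beta mice, limma called 0 of 7674 genes (0%), with 179 at an unadjusted p under 0.05, and 0 of 38 members were lower at that level, against 0.625% of all genes.

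Markers of other cells moved along with some of these values, and their part in the results was not tested. In TGF-beta mouse 2 the 17 measured of 20 hair follicle markers summed to 46134 signal units, against 647 in mouse 1, 598 in PBS local, 606 under TSLP, 2174 in PBS distal and 3382 under IL-13. Krt25, a hair sheath keratin, was at 12.3 in PBS local and 13132 in mouse 2. At or above the limit were 14 of the 17 in mouse 2, 0 in mouse 1, 1 each in PBS local and TSLP skin, 4 in PBS distal and 5 under IL-13. The 12 regenerating muscle markers summed to 702 in distal skin, with 0 at the limit, and to 2802 under TSLP, with 4, against 5164 in PBS local, 4200 under IL-13 and 6073 and 5918 in the TGF-beta mice, with 6 on each of these 4 arrays. Among them Myh3, embryonic myosin, was at 42.7 in distal skin, 1676 in PBS local and 1175 under TSLP. The 5 measured of 8 erythroid markers were also lowest in distal skin (273, 0 at the limit), with 1129 under TSLP (3), 1130 and 1454 in the TGF-beta mice (3 each), 1696 under IL-13 (3) and 2205 in PBS local (4).

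Neutrophil markers were low in distal skin only, where the 12 genes summed to 1250 (2 at the limit), and lay between 5925 and 12679 on the 5 outlet arrays. All 8 basal keratinocyte markers were above the limit on every array, and summed to 31974 under TSLP, 37965 in PBS local, 31699 under IL-13, 35688 and 32042 in the TGF-beta mice and 49215 in distal skin. In distal skin all 8 were above PBS local, with a median of 0.39, and under TSLP 7 of 8 were below it, with a median of -0.24. The 7 measured of 8 fibroblast markers were all below PBS local under TSLP and summed to 56567 there, 57296 in distal skin, 67162 in PBS local, 73872 under IL-13 and 84368 and 69821 in the TGF-beta mice. TSLP and distal skin, the arrays with the lowest mitotic sums, were the lowest for this list too. A reference list of ribosomal protein genes (7 measured of 10) was also lowest under TSLP (59097), against 65695 in PBS local. It summed to 76635 in distal skin, 74430 under IL-13 and 81815 and 80058 in the TGF-beta mice. Differentiated keratinocyte markers were lowest under TSLP (34099) and highest in distal skin (52998). Of the 10 symbols in that list 7 were measured, and loricrin was listed under both its old and its current symbol.

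Markers of several further cell types were below PBS local in distal skin in every measured gene, namely 10 of 10 for macrophages (median -0.44), 8 of 8 for endothelium (-0.54), 8 of 8 for mast cells (-0.73), 6 of 6 for B and plasma cells (-1.72) and 8 of 8 for exocrine pancreas (-2.14). Under TSLP the medians of these lists were 0.02, 0.27, -0.46, -0.19 and 1.54, in the same order. Adipocyte and mature skeletal muscle markers summed higher in distal skin than in PBS local, at 32161 against 24887 and 119680 against 103973. T and NK cell markers (920 against 1203) and stressed keratinocyte markers (6797 against 8098) summed lower there.

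**Figure D4:**
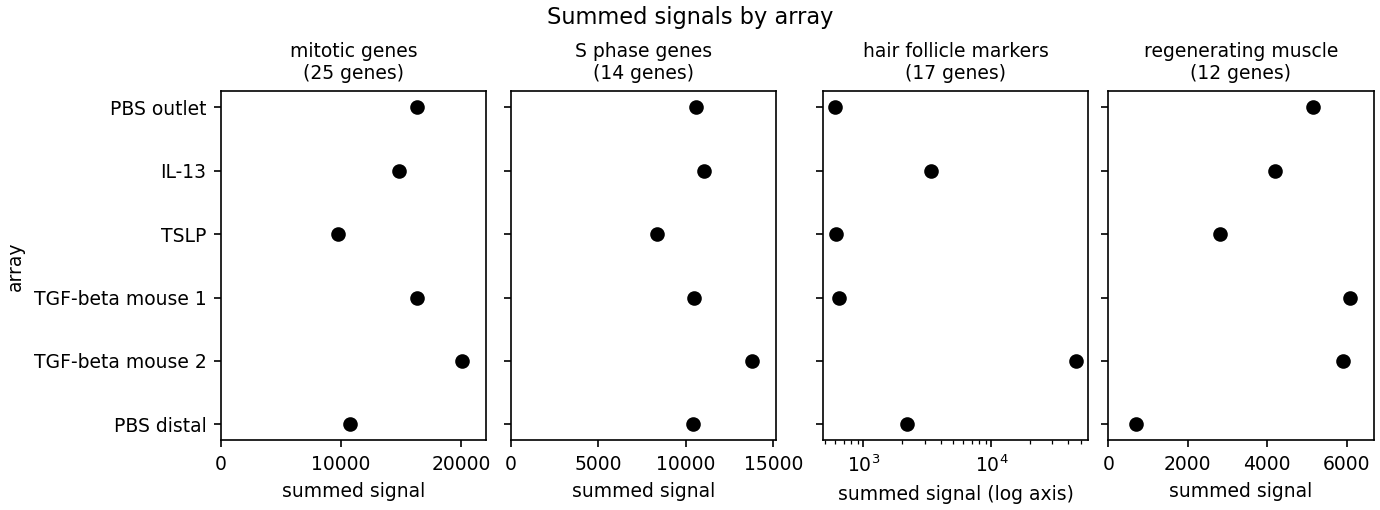
Summed signals per array for the 25 mitotic and 14 S phase genes beside 17 hair follicle markers (log axis) and 12 regenerating muscle markers. Mitotic sums run from 9716 under TSLP and 10788 in distal skin to 20114 in TGF-beta mouse 2, which also has the highest hair follicle sum (46134).

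Further cell cycle genes outside the list were described in the same way. Of 29 other mitotic genes measured, 26 were below PBS local under TSLP, with a median of -0.44, 25 in distal skin, with -0.28, and 17 under IL-13, with -0.11. Hmmr, a spindle-associated hyaluronan receptor, was the 1 of 21 tested that was 2-fold lower under TSLP, against 0.447% of all genes. At -1.0, Hmmr only just met the rule. Its signal was 343 in PBS local, 199 in PBS distal, 240 under IL-13, 158 under TSLP and 279 and 315 in the TGF-beta mice. Of 21 other S phase genes, 18 were below PBS local under TSLP, with a median of -0.25. In distal skin 12 were, with -0.06, and under IL-13 9 were, with 0.01. None was 2-fold lower on any of the 3 arrays, against 0.447%, 3.51% and 0.41% of all genes in the same order. Against the TGF-beta mice limma called 0 of both lists in TSLP skin, while 14 of 23 mitotic and 2 of 17 S phase genes were lower and 0 higher at an unadjusted p under 0.05. Over all genes 2.90% were lower at that level. These genes, like the members, share the error of the single TSLP array.

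The regulators of G1 did not share the low medians of the mitotic genes. The 24 measured genes of this kind, among them D-type cyclins, E2F factors and kinase inhibitors, had a median of 0.01 under TSLP and 0.02 in distal skin. In either, 0 of 19 tested were 2-fold higher or lower. Of all genes 0.998% were higher and 0.447% lower under TSLP, and 0.788% and 3.51% in distal skin, so that count does not set the list apart. Cdkn1c, the p57 inhibitor of cyclin-dependent kinases, was at 188 in PBS local, 113 in PBS distal, 216 under IL-13, 375 under TSLP and 432 and 269 in the TGF-beta mice. It was higher under TSLP than in PBS local by 0.90, and in the TGF-beta mice by 1.09 and 0.46. Against distal skin it was higher under TSLP by 1.52. Ccnd2, a D-type cyclin, was lowest in PBS local (1814) and reached 2935 in distal skin, 2510 under TSLP and 3141 in TGF-beta mouse 2. In limma, TGF-beta against PBS local, 0 of 20 such genes were called. At an unadjusted p under 0.05, 2 (Btg1 and Cdkn1b) were higher, against 2.02% of all genes.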

How the data were processed

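MAS5 produced the deposited linear signal intensities, 1 per probe set and array, as named in the submitters' processing notes, per the labels. Its version and a genome build were not given in the sources used here. In all, the table holds 22690 probe sets. Annotation named 1 gene for 20380 of them, and 20351 symbols were matched by gene number to RefSeq GRCm38.p6. Arrays were scaled to a common trimmed mean (2% left out at each end) and taken as log2(signal + 27.4), the offset being the 25th percentile. Array medians were 160 to 171, and 0 per-sample columns were left unused. Depth does not apply to arrays, and the number of arrays limits the precision.

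A gene entered a comparison if 1 compared array reached 165. TGF-beta was compared with PBS local, TSLP and IL-13 in limma 3.58.1 (R 4.3.3; 5 groups, intensity trend, Benjamini-Hochberg at 0.05), with 1 residual and 3.13 prior degrees of freedom from the TGF-beta pair. Single arrays were assumed to vary like that pair. Nothing in the labels pairs samples. The fit was tested on simulated data.

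Members, lists and tests were chosen with earlier results of these data known. Named with all 6 signals were members past the 2-fold rule against PBS local or TGF-beta and the 3 brightest of the S phase and mitotic classes, and some further members chosen after their values were seen (Stmn1, Tk1); Cdkn1c and Ccnd2 were also chosen so. Promoters were taken from the RefSeq table.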

Additional observations from a re-analysis of the deposited data

How the results depend on the processing

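Of the values recomputed under another setting, 138 stayed near the reported one and 26 moved. Class medians were also taken without members read by s_at or x_at probe sets and over members above the limit only, both chosen after seeing the data. So was quantile normalization together with PBS distal as control, under which limma called 316 genes for TGF-beta. The mitotic medians moved past the spread between the TGF-beta mice only with PBS distal as control. The small S phase medians turned sign in 2 settings, to -0.02 for IL-13 (filter on the mean of 6 arrays) and 0.03 for distal skin (mean of all probe sets). With PBS distal as control the mitotic medians became 0.59 for TGF-beta, 0.36 for IL-13 and -0.14 for TSLP, members 2-fold lower under TSLP 0, members 2-fold higher under TGF-beta 1, genes called for TGF-beta 4, and genes past 2-fold 569 (IL-13) and 492 (TSLP). Members 2-fold lower under TSLP numbered 7 at the lower and 0 at the higher offset, in distal skin 3 and 0, and for TSLP against TGF-beta 0 at the higher offset and 1 with the mean of all probe sets. Leaving out a TGF-beta mouse gave 2 to 15 for that count and 0 to 1 for members 2-fold higher under TGF-beta. At the higher offset, genes past 2-fold numbered 60 (IL-13), 60 (TSLP) and 168 (distal), and without the filter 176 (IL-13). With the borrowed spread limma called 0 (IL-13), 0 (TSLP) and 2 (distal) genes. After quantile normalization it called 4 genes each for TSLP and IL-13 against TGF-beta. The cause of these shifts was not tested. Class medians as reported use no filter, so the setting with no filter on low values gave no separate value for them. Limma could not be fitted without a TGF-beta mouse, since no residual degree of freedom is left. No paired analysis was possible because 4 of 5 groups hold 1 array and so share fewer than 2 replicate numbers.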
